A study of Homo sapiens with 12 samples.

Results

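The 4E-binding proteins (4EBPs) and the cap-binding proteins of the eIF4E family were followed as 7 genes, chosen by name from the 58735 human genes of the count table. They are EIF4EBP1, EIF4EBP2 and EIF4EBP3, which encode the 3 4EBPs, EIF4E, EIF4E2 and EIF4E3, which encode the cap-binding proteins, and EIF4ENIF1, which encodes the eIF4E transporter 4E-T. All 7 symbols were found in the table, each with 1 gene identifier. The cells were 293T, a human embryonic kidney line, sorted as a GFP-positive population after lentiviral transfer of a doxycycline-inducible 4EBP1-4A construct, in which 4 phosphorylated serine and threonine residues of 4EBP1 are replaced by alanine. Control (DMSO) and doxycycline (DOX, 2 mg/ml) cells all carried this construct and were all given cycloheximide for 10 min before lysis. The sample labels give 12 h of treatment, the text of the deposited series gives 2 h, and the results text of the study gives a longer time than either. RNA-seq of total RNA and Ribo-seq, which counts the mRNA fragments that ribosomes protect, were each done on 3 DMSO and 3 DOX samples, 12 libraries in all. The study calls its replicates biological, without saying how they were grown, and the p-values below measure the spread between these samples.

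Cap-dependent translation starts when eIF4E binds the cap at the 5′ end of an mRNA and, through the scaffold eIF4G, brings in the small ribosomal subunit. The 4EBPs compete with eIF4G for the same face of eIF4E, and phosphorylation by mTORC1 makes them let go of it, so that a 4EBP that cannot be phosphorylated keeps eIF4E from eIF4G. How much 4EBP a cell has relative to eIF4E is therefore a quantity of interest in this pathway, and it was examined here as mRNA.

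The feature that joins the 4EBPs with 4E-T is a short eIF4E-binding motif, shown here because it sets these genes apart from the cap-binding proteins. It was searched in the coding sequence of 1 GENCODE reference transcript per gene (GRCh38) as a tyrosine codon, 4 codons of any kind, a leucine codon, and a codon for leucine, methionine, isoleucine, valine or phenylalanine. In the sequences below, the tyrosine and leucine codons are in capitals.
EIF4EBP2: TATgacagaaagtttCTGttg
EIF4EBP3: TACgaccgaaagttcCTGctg
EIF4ENIF1: TATacaaaagaagaaCTCttg
The EIF4EBP2 sequence lies at chr10:70419928-70419948 on the + strand, in exon 2, and starts at residue 54 of the protein. The EIF4EBP3 sequence lies at chr5:140548920-140548940 on the + strand, in exon 2, and starts at residue 40. The EIF4ENIF1 sequence is on the − strand and is split between exon 2 (chr22:31488623-31488631) and exon 3 (chr22:31471906-31471917), starting at residue 30. EIF4EBP1 also holds 1 match, starting at residue 54, while EIF4E, EIF4E2 and EIF4E3 hold 0. The motif is short, and 5042 of 19061 reference coding sequences (26.5%) hold at least 1 match, so that a match alone is a description of these letters.

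Reads on genes numbered 21687906 to 57824136 per RNA-seq library and 210186 to 1002424 per Ribo-seq library. DOX replicate 3 stood apart from the other RNA-seq libraries, with the fewest reads on genes. Reads on genes made up 5.94% of its counts, against 22.9% and 19.7% in DOX replicates 1 and 2 and 25.2% to 30.8% with DMSO. These counts include those of alignments that were not unique, and whether a read could enter them more than once is not stated. The share of counts on genes and the number of reads on genes were lower in every DOX library than in every DMSO library. Neither can therefore be told apart from treatment, with or without DOX replicate 3. The RNA-seq change between DOX and DMSO also moved with the GC content of a gene's reference transcript. In the quintile of tested genes with the lowest GC content the median log2 change was -0.37, and in the quintile with the highest it was 0.33. Without DOX replicate 3 these medians were -0.18 and 0.16. The values of the 7 genes are therefore also given without that library and after a correction for GC content, both separately and together; the correction was added after the data had been seen. The 7 marker genes of 293T cells all had reads in every library, and of 9 skin markers, 7 had 3 reads or fewer in every library. Of 4 blood and 4 fibroblast markers, HBB and COL1A2 were at or under 3 reads in every library. Higher counts were those of COL1A1 (417 to 627 reads per library), LUM (7 to 78), HBA1 (1 to 12) and CD74 (3 to 11). Of the skin markers, KRT10 had 56 to 313 reads per library. Summed over each list, the 293T markers were at 973 to 1061 CPM with DMSO and 1093 to 1329 with DOX, the skin markers at 5.24 to 5.84 and 2.37 to 5.07, the blood markers at 0.287 to 0.457 and 0.213 to 0.315, and the fibroblast markers at 9.89 to 11.7 and 11.1 to 24.5. The part of these differences in the results below was not tested.

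EIF4EBP1, the gene whose mutant form the construct encodes, was looked at first. It lies on chromosome 8 of GRCh38 from 38030534 to 38060365 (+ strand). Its level, in TMM-scaled CPM (the reads of a gene relative to those on all genes of the library), was 156, 157 and 169 in DMSO replicates 1, 2 and 3, and 260.0, 281 and 267 in DOX replicates 1, 2 and 3. Every DOX library was above every DMSO library, and DOX replicate 3 was within the range of the other DOX libraries. The fitted change was 1.68-fold (95% interval 1.44 to 1.96). EIF4EBP1 ranked 1 by p among the 20552 genes tested by edgeR's quasi-likelihood test, but its Benjamini-Hochberg adjusted p was 0.326. With DESeq2's Wald test the adjusted p was 8.55e-09, and without DOX replicate 3 in edgeR it was 1.19e-05, at a change of 1.68-fold. After GC correction the change was 1.33-fold (adjusted p = 0.303), and with the correction and without DOX replicate 3 it was 1.48-fold (adjusted p = 0.000341). The reads of the gene and of the construct could not be told apart, since the sequence of the construct was not used here. Whether its codons match those of the gene is not stated in the sources used here, so the share of the construct's reads that was counted on EIF4EBP1 is not known, and this holds for each EIF4EBP1 value and ratio below. In total RNA, more mRNA per cell and more cells that express the construct likewise cannot be told apart.

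**Figure D1:**
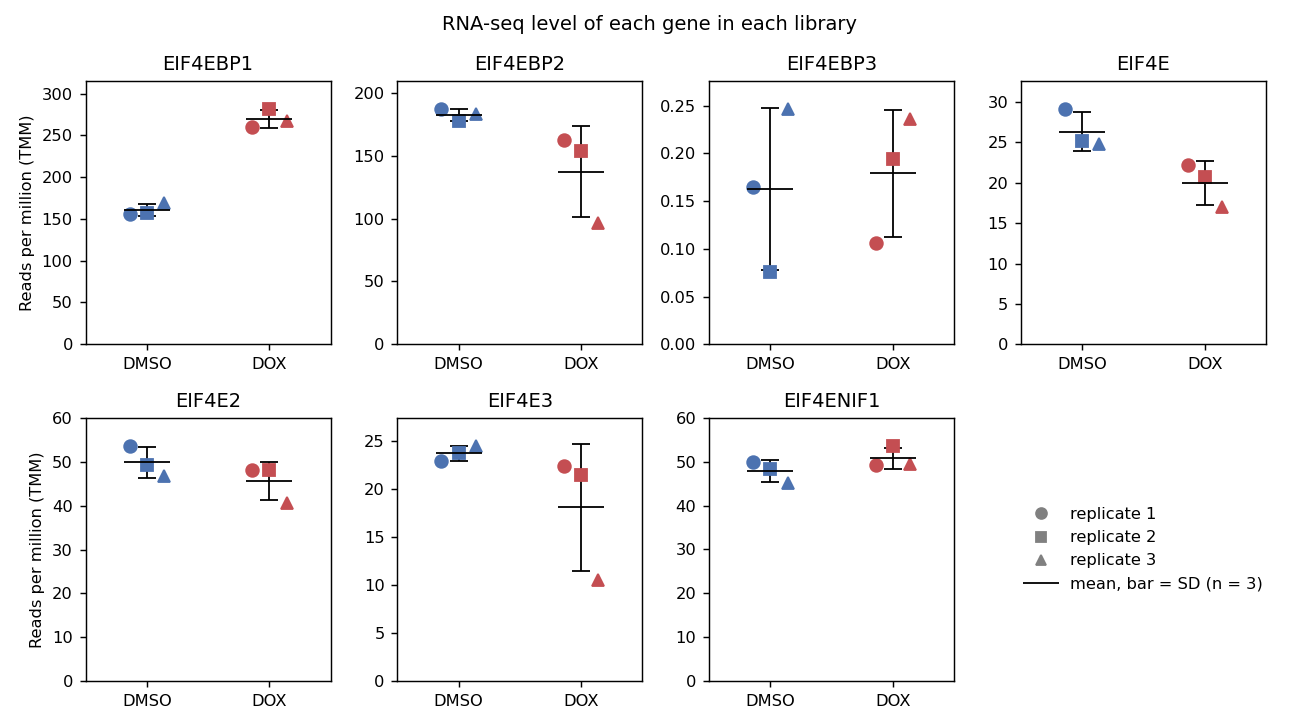
RNA-seq level of each gene in each library, in TMM-scaled CPM (vertical axes start at 0 and differ between panels); points are libraries with a shape per replicate, lines are means and bars are SD (n = 3). These values are not corrected for GC content. The DOX points lie above all DMSO points for EIF4EBP1 and below them for EIF4EBP2, EIF4E and EIF4E3. With GC correction of all 6 libraries the fitted change of EIF4E and EIF4E3 turns its sign. For EIF4E it does not when DOX replicate 3 is also left out. DOX replicate 3 (triangle) is the lowest point for EIF4EBP2, EIF4E, EIF4E2 and EIF4E3.

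EIF4EBP2, the paralog of EIF4EBP1 that is known for its role in the brain, lies on chromosome 10 from 70404145 to 70428618 (+ strand). It was at 187, 178 and 183 CPM in DMSO replicates 1, 2 and 3, and at 162, 154 and 96.1 CPM in DOX replicates 1, 2 and 3. All DOX libraries were below all DMSO libraries, and DOX replicate 3 was far below the others. The fitted change was 0.753-fold (95% interval 0.552 to 1.03, adjusted p = 0.326 by edgeR's quasi-likelihood test). Without DOX replicate 3, EIF4EBP2 fell to 0.864-fold (adjusted p = 0.0463), and with GC correction as well to 0.8996-fold (adjusted p = 0.0487). After GC correction of all 6 libraries the value was 0.839-fold (adjusted p = 0.303). EIF4EBP2 was thus below DMSO under all 4 of these settings, and past the threshold under the 2 that leave out DOX replicate 3.

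EIF4EBP3, on chromosome 5 from 140547662 to 140549576 (+ strand), had 9, 4 and 12 reads in the DMSO libraries and 5, 9 and 6 reads in the DOX libraries, and the groups overlapped. These counts were too low for the filter, so EIF4EBP3 was not tested. It shares 73.2% of its exon bases with ANKHD1-EIF4EBP3, a readthrough gene on the same strand, and reads on the shared bases may have been left out of the counts or split. Of the other members, EIF4EBP1 and EIF4EBP2 share 0% of their exon bases with other genes, EIF4E 4.69%, EIF4ENIF1 8.67%, EIF4E3 9.71% and EIF4E2 10.4%, on either strand, and since use of strand in the counting is not stated these reads cannot be assigned with certainty. The readthrough gene itself had 150 to 195 reads in DMSO replicates 1, 2 and 3 and DOX replicates 1 and 2, and 31 reads in DOX replicate 3.

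EIF4E, the cap-binding protein that the 4EBPs hold back, lies on chromosome 4 from 98879276 to 98929133 (− strand). Its level was 29.1, 25.1 and 24.8 CPM in DMSO replicates 1, 2 and 3, and 22.2, 20.8 and 17.0 CPM in DOX replicates 1, 2 and 3. All DOX libraries were below all DMSO libraries. The fitted change was 0.759-fold (95% interval 0.606 to 0.950, adjusted p = 0.326 by edgeR's quasi-likelihood test), and without DOX replicate 3 it was 0.813-fold (adjusted p = 0.0447). This direction did not hold after GC correction, with which EIF4E was at 1.11-fold (95% interval 0.862 to 1.43), and with the correction and without DOX replicate 3 it was at 0.960-fold (95% interval 0.876 to 1.05). The EIF4E reference transcript has a GC content of 34.5%, the lowest of the 7 genes.

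EIF4E2, also called 4EHP, binds the cap but does not bind eIF4G and is known as a repressor that works with GIGYF2 and ZNF598. It lies on chromosome 2 from 232550659 to 232583644 (+ strand). Its levels of 53.7, 49.2 and 46.8 CPM in the DMSO libraries and 48.1, 48.1 and 40.6 CPM in DOX replicates 1, 2 and 3 overlapped. The fitted change was 0.915-fold (95% interval 0.756 to 1.11, adjusted p = 0.490 by edgeR's quasi-likelihood test). It was 0.963-fold without DOX replicate 3, 0.910-fold with GC correction and 0.951-fold with both. When libraries were scaled by their totals alone, the log2 change of EIF4E2 was 0.0076, of the opposite sign.

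EIF4E3, a cap-binding protein that contacts the cap in its own way, lies on chromosome 3 from 71675414 to 71754773 (− strand). It was at 22.8, 23.7 and 24.4 CPM in the DMSO libraries and at 22.4, 21.4 and 10.5 CPM in DOX replicates 1, 2 and 3. All DOX libraries were below all DMSO libraries, but DOX replicates 1 and 2 lay close to the DMSO range and DOX replicate 3 was at 0.490 times the geometric mean of the other DOX libraries on the CPM + 0.5 scale. The fitted change was 0.767-fold (95% interval 0.503 to 1.17, adjusted p = 0.379 by edgeR's quasi-likelihood test). Without DOX replicate 3 it was 0.924-fold, and with GC correction it was 1.01-fold, so the direction was not kept.

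EIF4ENIF1 encodes 4E-T, which carries eIF4E into the nucleus and links it to the mRNA decay machinery of P-bodies. It lies on chromosome 22 from 31436977 to 31496108 (− strand). Its levels were 50.0, 48.4 and 45.2 CPM in the DMSO libraries and 49.3, 53.6 and 49.5 CPM in the DOX libraries, and the groups overlapped. The fitted change was 1.06-fold (95% interval 0.899 to 1.25, adjusted p = 0.596 by edgeR's quasi-likelihood test). It stayed between 1.04-fold and 1.07-fold with GC correction, without DOX replicate 3, or both.

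Of the 7 genes, 6 passed the filter on low counts and 0 were called at an adjusted p of 0.05, as were 0 (0%) of the 20552 genes tested; 2817 of those genes (13.7%) had an unadjusted p under 0.05, and DESeq2's Wald test called 3 (0.0146%), of which EIF4EBP1 was 1. At an unadjusted p under 0.05, 1 of the 6 genes (EIF4EBP1) was higher and 1 (EIF4E) was lower, against 9.58% and 4.13% of all genes. The DOX libraries were all above the DMSO libraries for 1 of the 6 genes, against 17.7% of all genes tested, and all below for 3 of the 6, against 20.8%. The exact permutation test gave p = 0.1 for each of these 4 genes, the smallest p that 3 libraries against 3 allow. Without DOX replicate 3, 3 of the 6 genes were called (EIF4EBP1 higher, EIF4EBP2 and EIF4E lower), against 3.4% of all genes called higher and 4.03% lower. With GC correction and without that library, EIF4EBP1 (higher) and EIF4EBP2 (lower) were called, against 1.95% and 1.96%.

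**Figure D2:**
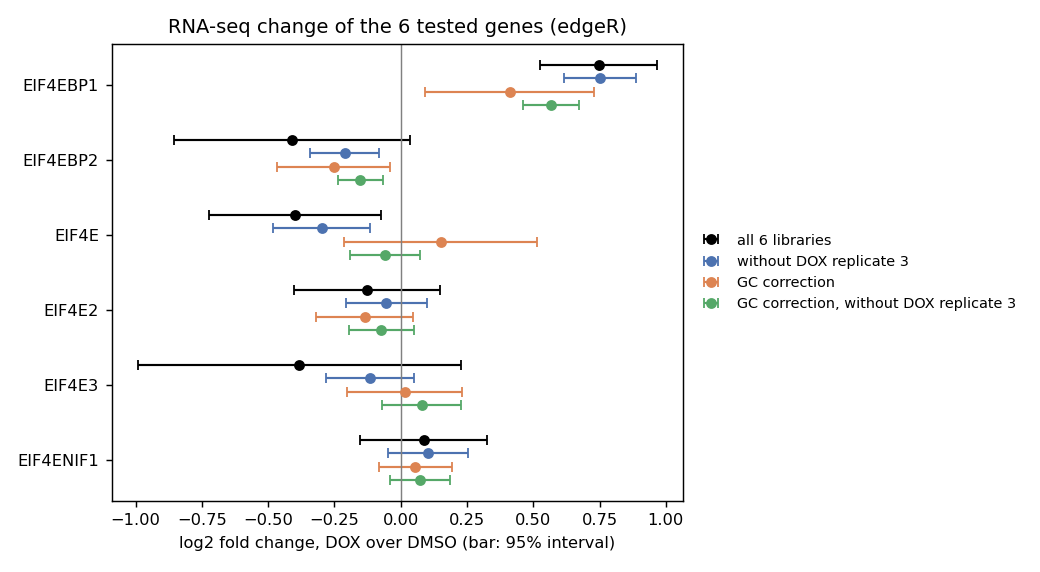
Fitted log2 fold change of the 6 tested genes, DOX over DMSO, with 95% intervals from edgeR's quasi-likelihood fit; the colours are all 6 libraries, without DOX replicate 3, with GC correction, and with both. EIF4EBP1 is right of 0 and EIF4EBP2 left of 0 in every fit. EIF4E and EIF4E3 lie left of 0 with all 6 libraries and right of it with GC correction of all 6. With the correction and without DOX replicate 3, EIF4E is left of 0 (-0.058) and EIF4E3 right of it (0.078).

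The changes were set beside the medians of all tested genes of like GC content. Among the 6 genes tested, EIF4E and EIF4E3 were in the quintile of genes with the lowest GC content, where the median log2 change was -0.37, and their own log2 changes were -0.40 and -0.38. EIF4E2 and EIF4ENIF1 were in the middle quintile, with a median of -0.04, and were at -0.13 and 0.09. EIF4EBP2, in the second quintile, was at -0.41 against a median of -0.20. EIF4EBP1, with a GC content of 62.9%, was in the highest quintile and at 0.75 against a median of 0.33.

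**Figure D3:**
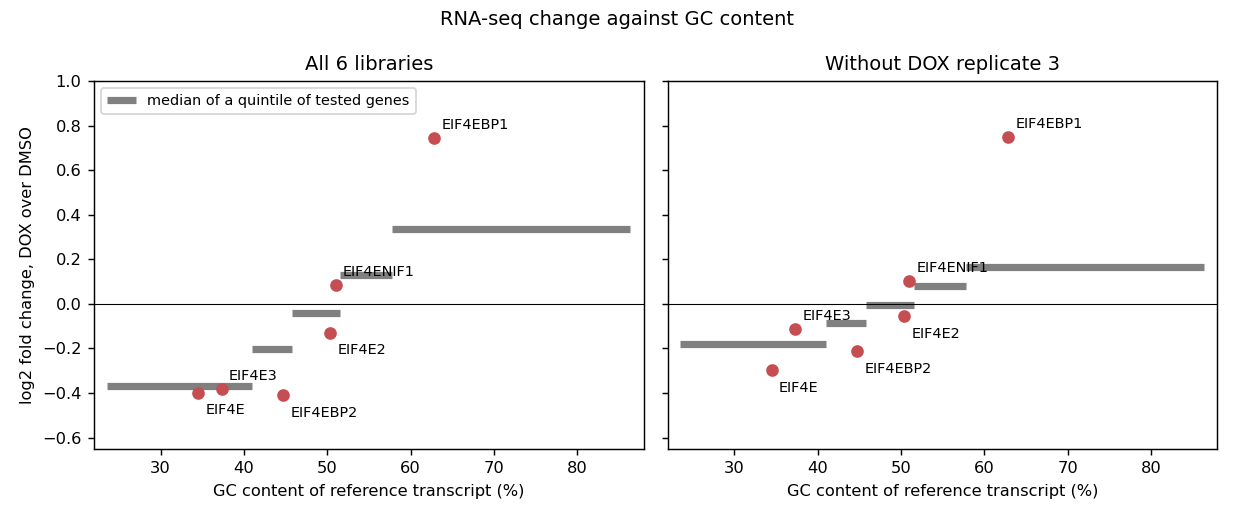
Log2 fold change, DOX over DMSO, against the GC content of the reference transcript, with all 6 libraries (left) and without DOX replicate 3 (right); grey lines are medians over quintiles of the tested genes drawn across each quintile's GC range, and points are the 6 genes. The medians climb from -0.37 to 0.33 on the left and from -0.18 to 0.16 on the right, and EIF4EBP1 lies above the median of its quintile in both.

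The balance between the 4EBP and eIF4E mRNAs was computed within each library, where the scaling between libraries cancels. The ratio of EIF4EBP1 to EIF4E, in reads per kb of annotated exon, was 30.2, 35.3 and 38.7 in DMSO replicates 1, 2 and 3, and 66.3, 76.6 and 89.0 in DOX replicates 1, 2 and 3. All DOX libraries were above all DMSO libraries, at 2.22-fold (log2 change 1.15 with a standard error of 0.16; exact permutation test, two-sided, p = 0.1, adjusted p = 0.15 over the 9 ratios). After GC correction the ratio was 46.2, 43.6 and 51.8 in the DMSO libraries and 75.7, 69.4 and 32.8 in the DOX libraries. DOX replicates 1 and 2 then remained above all DMSO libraries, and DOX replicate 3 was below all of them. The corrected change was 1.18-fold with all 6 libraries and 1.54-fold without DOX replicate 3.

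Within the 4EBPs, the ratio of EIF4EBP1 to EIF4EBP2 was 7.09, 7.53 and 7.88 in DMSO replicates 1, 2 and 3, and 13.7, 15.6 and 23.7 in DOX replicates 1, 2 and 3. It was 2.29-fold higher with DOX by value, again with no overlap (exact permutation test, two-sided, p = 0.1, adjusted p = 0.15). Here the groups also stayed apart after GC correction, with 9.16, 8.53 and 9.30 in the DMSO libraries and 14.7, 14.9 and 13.0 in the DOX libraries, a 1.57-fold difference. The corrected DOX values lay closer together than the uncorrected ones, DOX replicate 3 included.

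The ratio of EIF4EBP2 to EIF4E was 4.26, 4.69 and 4.91 in the DMSO libraries and 4.85, 4.92 and 3.76 in DOX replicates 1, 2 and 3, which overlapped (0.971-fold, exact permutation test, p = 0.9). Without DOX replicate 3 its log2 change was 0.08, of the opposite sign. The ratio of EIF4E3 to EIF4E likewise overlapped (0.958-fold, exact permutation test, p = 1) and was at a log2 change of 0.18 without DOX replicate 3. The ratio of EIF4EBP3 to EIF4E rested on 4 to 12 reads a library and overlapped between the groups (exact permutation test, p = 0.5).

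The ratio of EIF4E2 to EIF4E was 0.798, 0.848 and 0.819 in DMSO replicates 1, 2 and 3 and 0.941, 1.004 and 1.04 in DOX replicates 1, 2 and 3, all above DMSO (1.21-fold, exact permutation test, two-sided, p = 0.1, adjusted p = 0.15). After GC correction it was 1.03, 0.969 and 0.986 in the DMSO libraries and 1.03, 0.935 and 0.561 in the DOX libraries, so the direction was not kept. With the correction and without DOX replicate 3 it was 0.987-fold. The ratio of EIF4ENIF1 to EIF4E was at 1.41-fold with no overlap (exact permutation test, p = 0.1, adjusted p = 0.15) and at 0.937-fold after GC correction, a direction that rested on DOX replicate 3. In the corrected values DOX replicates 1 and 2 (2.00 and 1.95) were above all DMSO libraries (1.80 to 1.83) and DOX replicate 3 (1.25) was below them, and without it the corrected change was 1.09-fold. Of the 7 ratios between single genes, the ratio of EIF4EBP1 to EIF4EBP2 was the one whose groups did not overlap both before and after GC correction.

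**Figure D4:**
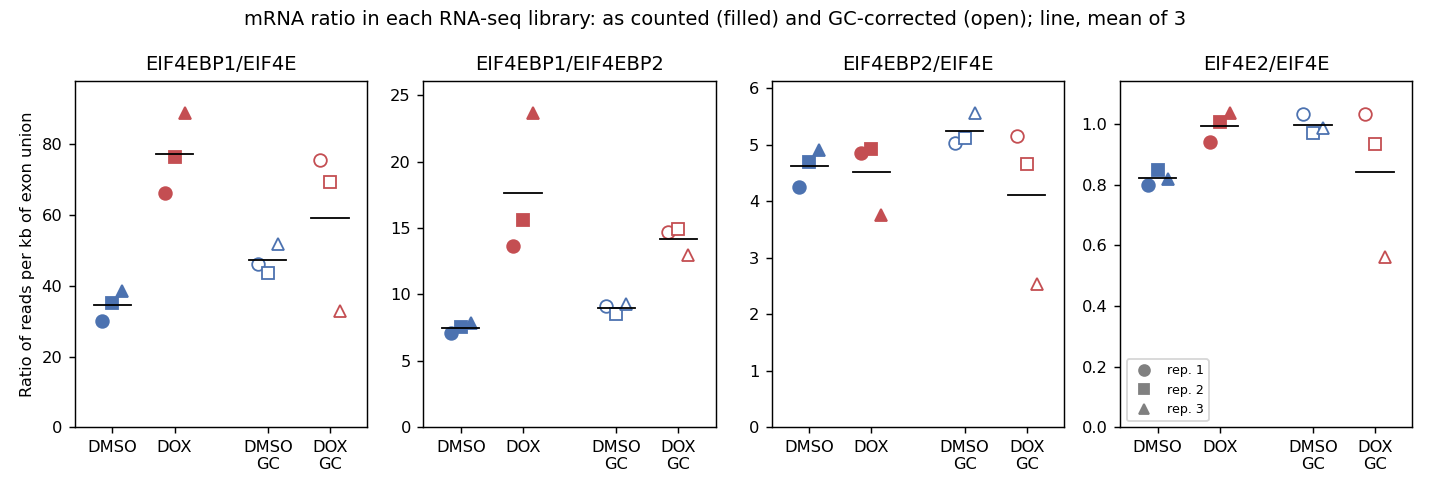
Ratio of reads per kb of annotated exon between pairs of genes in each RNA-seq library, as counted (filled points) and after GC correction (open points); lines are means of 3 libraries and shapes are replicates. The EIF4EBP1/EIF4E ratio of DOX replicate 3 goes from 89.0, the highest point, to 32.8 after correction, while EIF4EBP1/EIF4EBP2 keeps the groups apart in both.

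The 4EBP mRNAs summed, per kb, relative to EIF4E gave a ratio of 39.4 ± 4.59 with DMSO and of 81.9 ± 10.9 with DOX (SD, n = 3 each). Relative to the sum of EIF4E, EIF4E2 and EIF4E3 they were at 17.6 ± 1.61 and 34.2 ± 5.33 (SD, n = 3 each). These ratios are per kb of all annotated exons, and those by another length, given below, are lower. Both sums were higher in every DOX library than in every DMSO library (exact permutation test, p = 0.1, adjusted p = 0.15), and after GC correction the changes were 1.14-fold and 1.24-fold, with overlap. EIF4EBP1 made up 88.1% ± 0.54 of the summed 4EBP mRNA with DMSO and 94.3% ± 1.4 with DOX (SD, n = 3), and EIF4EBP2 made up 11.8% ± 0.55 and 5.63% ± 1.4. EIF4EBP3 was at 0.112% and 0.0795% of the sum.

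The levels per length depended on which length was used, and both are given. The length of all annotated exons of a gene merged (exon union) was 880 bp for EIF4EBP1, 7491 for EIF4EBP2, 693 for EIF4EBP3, 4971 for EIF4E, 11481 for EIF4E2, 10808 for EIF4E3 and 6102 for EIF4ENIF1. The reference transcript was much shorter for EIF4E2 (967 bp), EIF4E (2427 bp) and EIF4ENIF1 (3647 bp). In RPKM, the CPM per kb, by exon union with DMSO, the order of the means was EIF4EBP1 at 183, EIF4EBP2 at 24.4, EIF4ENIF1 at 7.84, EIF4E at 5.30, EIF4E2 at 4.35, EIF4E3 at 2.19 and EIF4EBP3 at 0.234. No neighbours in this order overlapped between their 3 DMSO libraries. With DOX the order was the same, but EIF4E (3.41 to 4.46 RPKM) and EIF4E2 (3.54 to 4.19 RPKM) overlapped.

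With the reference transcript as the length, EIF4E2 moved from the fifth place to the second, at 51.6 RPKM with DMSO against 10.9 for EIF4E. The ratio of EIF4E2 to EIF4E was then 4.76 ± 0.14 (SD, n = 3), against 0.822 ± 0.025 by exon union. The ratio of EIF4EBP1 to EIF4E was 18.03 ± 2.21 with DMSO and 40.2 ± 5.92 with DOX by reference transcript, against 34.7 ± 4.25 and 77.3 ± 11.4 by exon union (SD, n = 3 each). By reference transcript the DOX values of EIF4EBP2 (12.8 to 21.6 RPKM) and EIF4ENIF1 (13.5 to 14.7 RPKM) overlapped. EIF4EBP1 was the highest of the 7 genes and EIF4EBP3 the lowest with either length, in both groups. By reference transcript the 4EBP sum over EIF4E was 20.3 ± 2.38 with DMSO and 42.4 ± 5.66 with DOX. Over the sum of EIF4E, EIF4E2 and EIF4E3 it was 3.39 ± 0.35 and 6.06 ± 0.62 (SD, n = 3 each). As computed, with the same length of a gene in both groups, the change of a ratio between 2 genes does not depend on the length. The log2 change of the 4EBP sum over that eIF4E sum did, at 0.95 by exon union and 0.84 by reference transcript. The length and GC content of the construct's mRNA were not used.

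**Figure D5:**
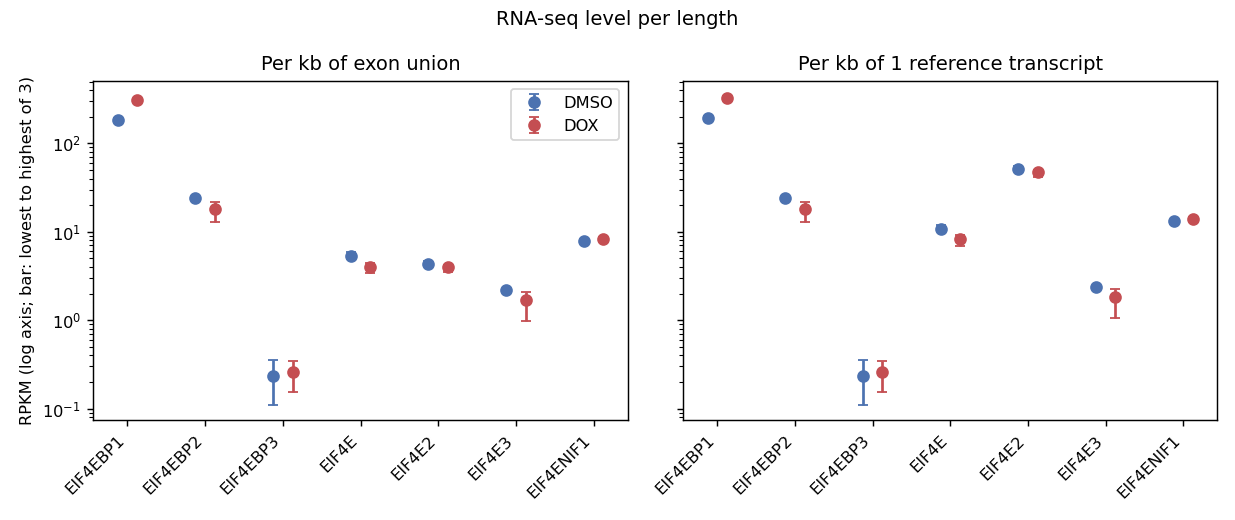
RNA-seq level of the 7 genes in RPKM (log axis) with DMSO and DOX, by the length of the exon union (left) and of 1 reference transcript (right); points are means and bars run from the lowest to the highest of 3 libraries. EIF4E2 stands at 4.35 with DMSO on the left and at 51.6 on the right, while EIF4EBP1 is the highest gene on both sides.

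In Ribo-seq, the 7 genes together had 5 reads over the 6 libraries, against 142076 over the 6 RNA-seq libraries. EIF4E and EIF4E2 had 2 reads each and EIF4EBP1 had 1, while EIF4EBP2, EIF4EBP3, EIF4E3 and EIF4ENIF1 had 0. Since 0 reads allow up to 3, the limit was between 2.99 and 14.3 CPM depending on the depth of the Ribo-seq library, for counting error alone. None of the 7 genes entered the test of translation efficiency (TE, ribosome fragments relative to mRNA), in which 2 of 1334 genes (0.15%) were called, both lower with DOX (edgeR's quasi-likelihood test of the interaction of assay and treatment). A change in the translation of these genes could therefore not be tested with these counts. In RNA-seq, EIF4EBP1 was at 156 to 281 CPM, above the limit of 2.99 to 14.3 CPM. So were EIF4EBP2 (96.1 to 187 CPM), EIF4ENIF1 (45.2 to 53.6), EIF4E2 (40.6 to 53.7) and EIF4E (17.0 to 29.1). EIF4E3 (10.5 to 24.4) lay partly within the range of the limit and EIF4EBP3 (0.0762 to 0.246) below it. Why the 7 genes together had 5 reads in Ribo-seq was not tested.

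Around these genes, 33 genes of eIF4E partners and of regulators of eIF4E or the 4EBPs were examined, of which 32 were tested; EIF4E1B, an oocyte paralog of eIF4E, had 6 reads or fewer in each library. In the fit of all 6 libraries 0 of the 32 were called by edgeR's quasi-likelihood test and 0 by DESeq2's Wald test, 1 was higher and 1 lower at an unadjusted p under 0.05 (9.58% and 4.13% of all genes), and the median log2 change was -0.05, against -0.04 for all genes. The DOX libraries were all above the DMSO libraries for 8 of the 32 and all below for 7, against the 17.7% and 20.8% of all genes.

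The largest positive changes in this list were those of ZNF598, a ubiquitin ligase of collided ribosomes, GIGYF1, a partner of EIF4E2, and KLHL25, the adaptor that marks unphosphorylated 4EBP1 for degradation. ZNF598 was at 102, 111 and 103 CPM in DMSO replicates 1, 2 and 3 and at 135, 151 and 215 CPM in DOX replicates 1, 2 and 3, with no overlap (log2 change 0.66, adjusted p = 0.326 by edgeR). GIGYF1 was at 0.53 and KLHL25 at 0.33 on the log2 scale, both highest in DOX replicate 3, and without that library they were at 0.20 and 0.19. With GC correction the log2 changes were 0.22 for ZNF598, 0.18 for GIGYF1 and 0.00045 for KLHL25. The GC content of these 3 transcripts was 61.4% to 64.97%.

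The largest negative changes were those of ANGEL2, a paralog of the eIF4E-binding protein Angel1, RPS6KB1, the S6 kinase downstream of mTORC1, and CUL3, the ligase scaffold that works with KLHL25. CUL3 was at 123, 113 and 115 CPM in DMSO replicates 1, 2 and 3 and at 103, 93.8 and 59.9 CPM in DOX replicates 1, 2 and 3, with no overlap (log2 change -0.45, adjusted p = 0.326 by edgeR). ANGEL2 was at -0.53 and RPS6KB1 at -0.48 on the log2 scale, both lowest in DOX replicate 3, and without that library they were at -0.23 and -0.24. With GC correction the log2 changes were -0.03 for CUL3, -0.22 for ANGEL2 and -0.07 for RPS6KB1. The GC content of these 3 transcripts was 37.2% to 39.1%.

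Without DOX replicate 3, ZNF598 was called higher (log2 change 0.44, adjusted p = 0.00443) and CUL3 (-0.25, adjusted p = 0.0340) and DDX6 (-0.23, adjusted p = 0.0360) were called lower by edgeR's quasi-likelihood test. This is 1 of 32 higher and 2 of 32 lower, against 3.4% and 4.03% of all genes. With GC correction and without that library, ZNF598 was again called higher (0.23, adjusted p = 0.0134), CUL3 and DDX6 were at -0.06 and -0.09 and not called, and RPS6KB2 (-0.21, adjusted p = 0.0212) and MKNK2 (-0.19, adjusted p = 0.0310) were called lower, against 1.95% of all genes called higher and 1.96% lower. With all 6 libraries and no correction, RPS6KB2 and MKNK2 were of the opposite sign, at 0.02 and 0.12 on the log2 scale. DDX6, an RNA helicase of P-bodies, RPS6KB2, a second S6 kinase, and MKNK2, a kinase of eIF4E, were named after their values were seen. ZNF598 was the 1 gene of the list called in both of these fits.

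The genes whose pattern over the 6 RNA-seq libraries was most like that of EIF4EBP1 were sought among 10367 tested genes with a mean of at least 10 CPM, by Pearson's r of log2(CPM + 0.5). They were C1orf198 (r = 0.986), GEMIN5 (0.985), HK1 (0.979), AFG3L2 (0.979) and TTYH2 (0.978), and 129 genes had an r over 0.9. GEMIN5 is a subunit of the SMN complex, HK1 a hexokinase and AFG3L2 a protease of the inner mitochondrial membrane, and the log2 changes of these 5 genes were between 0.12 and 0.52. Among the lowest were RAB29 (r = -0.968) and PPP2R5A (-0.967), both at a log2 change of -0.13, which changed sign when libraries were scaled by their totals. These libraries form 2 groups of 3, so r describes 6 points that share treatment group, depth and GC content effects. Among the other members, r with EIF4EBP1 was 0.57 for EIF4ENIF1, -0.53 for EIF4E3, -0.58 for EIF4E2, -0.67 for EIF4EBP2 and -0.84 for EIF4E.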

How the data were processed

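RNA-seq and Ribo-seq libraries of 293T cells with the inducible 4EBP1-4A construct were used, 3 DMSO and 3 DOX samples per assay. The deposited counts are raw reads per gene: the authors cut linkers off the Ribo-seq reads, discarded ribosomal RNA, aligned with STAR to GRCh38 and counted unique alignments to exons; the submitters' processing notes also name GRCh37 and the labels Ensembl 75. Use of strand is not stated, and 11 pseudogenes of the members had 10 reads or fewer in every RNA-seq library. A deposited table of the authors' TE comparison (dispersion, TE ratios, log2 change, p and q) was read for gene symbols only.

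The members and lists were chosen with earlier results of these data known. Rows that name no human gene, 69.2% to 94.1% of RNA-seq and 97.1% to 99.1% of Ribo-seq counts, were left out. These rows include the counter of alignments that were not unique. It held 102960717 to 322459696 per RNA-seq library, the most in DOX replicate 3. Genes reaching 10 reads in 3 or more libraries were tested with edgeR 4.0.16 (limma 3.58.1, R 4.3.3; quasi-likelihood, TMM) and Benjamini-Hochberg adjustment over all of them at 0.05. TE was tested as an assay-by-treatment interaction in genes with at least 10 reads summed over each assay's 6 libraries. Ratios were tested by exact permutation, two-sided (scipy 1.17.1, Python 3.11.15). Lengths, GC content and positions came from GENCODE 44 on GRCh38, which held 99.1% of the gene identifiers. GC correction subtracted from each library its median deviation in 20 bins of GC content. Alternatives were library totals, the size factors and Wald test of DESeq2 1.42.0, no filter, 60 reads summed (RNA-seq), the replicate number as a block, and each replicate left out. On simulated counts with 200 genes changed 2-fold among 20552, the RNA-seq test recovered 129, and in TE 0 of 200 among 1334. The simulated counts held no shift with GC content and no library that deviates like DOX replicate 3. They therefore do not give the power of the tests in these data.

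The text names all 7 members, called partner genes or the 3 highest and 3 lowest log2 changes, and the 5 highest and 3 lowest correlations with EIF4EBP1 at a mean of at least 10 CPM; 1 gene picked by this rule is not reported here.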

Additional observations from a re-analysis of the deposited data

How the results depend on the processing

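With DESeq2's size factors, no filter or a minimum of 60 reads, no RNA-seq call or direction of a member changed. DESeq2's Wald test called 3 genes, of which 1 was a member (EIF4EBP1, log2 change 0.77). With library totals EIF4E2 (0.0076), RAB29 (0.011) and PPP2R5A (0.011) changed sign. Leaving out a replicate gave 0 to 1521 genes called in RNA-seq, 0 to 3 members and 0 to 3 partner genes; the highest count each time was without DOX replicate 3. The log2 changes ranged from 0.71 to 0.80 for EIF4EBP1, -0.54 to -0.21 for EIF4EBP2, -0.47 to -0.30 for EIF4E, -0.17 to -0.05 for EIF4E2, -0.55 to -0.11 for EIF4E3 and 0.05 to 0.12 for EIF4ENIF1 when a replicate was left out. For the ratios they ranged from -0.11 to 0.084 for EIF4EBP2 to EIF4E (0.0027 without DMSO replicate 3, 0.084 without DOX replicate 3), -0.19 to 0.18 for EIF4E3 to EIF4E (0.0042 and 0.18), 1.04 to 1.26 for EIF4EBP1 to EIF4E, 0.96 to 1.36 for EIF4EBP1 to EIF4EBP2, 0.19 to 1.05 for EIF4EBP3 to EIF4E, 0.40 to 0.59 for EIF4ENIF1 to EIF4E, 0.24 to 0.31 for EIF4E2 to EIF4E, and 0.96 to 1.15 and 0.83 to 1.05 for the 4EBP sum over EIF4E and over the eIF4E sum. The levels per length of EIF4EBP1 to EIF4E were 32.7 to 37.0 (DMSO) and 71.4 to 82.8 (DOX), of EIF4EBP1 to EIF4EBP2 7.31 to 7.70 and 14.6 to 19.6, and of EIF4E2 to EIF4E 0.809 to 0.833 and 0.973 to 1.02. MKNK2 ranged from -0.023 to 0.21 and RPS6KB2 from -0.042 to 0.083, the lowest without DOX replicate 3, which turned their sign; without DMSO replicate 1 RPS6KB2 was at -0.0020.

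GC correction, added after the data were seen, reversed EIF4E (0.15), EIF4E3 (0.016), MKNK2 (-0.22), RPS6KB2 (-0.31), RAB29 (0.012) and the ratios of EIF4E2 (-0.29) and EIF4ENIF1 (-0.094) to EIF4E. It moved the ratios of EIF4EBP1 to EIF4E (0.24), EIF4EBP2 to EIF4E (-0.41) and EIF4EBP1 to EIF4EBP2 (0.66), and those of the 4EBP sum to EIF4E (0.19) and to the eIF4E sum (0.31). With GC correction and without DOX replicate 3, 799 genes, 2 members and 3 partner genes were called, with EIF4EBP1 at 0.57, EIF4EBP2 at -0.15, EIF4E3 at 0.078, MKNK2 at -0.19 and RPS6KB2 at -0.21; the ratios to EIF4E were 0.62 (EIF4EBP1), -0.019 (EIF4E2), 0.14 (EIF4E3), 0.13 (EIF4ENIF1) and 0.56 (4EBP sum), the ratio of EIF4EBP1 to EIF4EBP2 was 0.72 and that of the 4EBP sum to the eIF4E sum 0.55. Why these values move with GC content was not tested. By reference transcript, the ratio of EIF4EBP1 to EIF4E was 18.03 (DMSO) and 40.2 (DOX), of EIF4E2 to EIF4E 4.76 and 5.76, and of EIF4EBP1 to EIF4EBP2 7.98 (DMSO).

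In TE, 1 gene was called with library totals, 10 without a filter, 70 with DESeq2, 0 with the replicate block and 0 to 1 with a replicate left out, against 2; none was a member, and no TE value of a member could be fitted with the filter on. DMSO and DOX samples share only a replicate number: the deviations of same-numbered RNA-seq libraries correlated at 0.39, -0.36 and 0.02. With the replicate block, 0 genes, 0 members and 0 partner genes were called in RNA-seq and EIF4EBP1 was at 0.75, and no call of a member changed.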
